A study of Mus musculus with 18 samples.

Results

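Myogenic progenitors made in culture from mouse embryonic stem cells, labelled iPax3, were set against myogenic progenitors sorted from mouse embryos at E10.5 (days after conception), labelled Emb. The comparison took the 3 bulk RNA sequencing libraries labelled iPax3 and the 3 labelled Emb, of 15 bulk libraries and 18 samples in the series. It covered every expressed gene, which came to 17571 genes after a filter on low counts, of 47728 gene identifiers in the deposited tables. The iPax3 cells were Vcam1+Flk1- cells of embryoid bodies that had been plated and kept for 3 passages with doxycycline (Dox) and basic fibroblast growth factor (bFGF). The Emb cells came from embryos of the strain labelled My5Cre Rosa26YFP and were collected freshly sorted, with no culture step given. A Rosa26YFP allele marks a cell once Cre has acted in it and stays on in the descendants of that cell, whatever they become. The stem cell line, the sex of the cells and the number of embryos behind each Emb library were not given. Culture, developmental origin and cell purity differ together between the groups and cannot be told apart here. Levels of X-linked Xist and Y-linked Ddx3y, given below, also separated the groups, so a difference in sex cannot be told apart from these either. The labels do not tie these libraries to separate cultures or embryos, so p-values reflect only the spread between libraries, which may be technical.

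In the embryo, skeletal muscle of the trunk and limbs descends from the dermomyotome, the dorsal part of the somite, whose progenitors carry the paired-box factor Pax3 and, in a central domain, its paralog Pax7. Six4 and Eya1 act beside them, the basic helix-loop-helix factors Myf5 and Myod1 commit cells to the muscle lineage, and Myog starts terminal differentiation. Hox genes record the level of the body axis from which a cell comes. Doxycycline-inducible Pax3 has been used to steer differentiating stem cells into progenitors that keep dividing in culture. Reads of Pax3 were not divided here between an inducing transgene and the gene of the cell itself.

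Counts per library totalled 38798892 to 56275318 for iPax3 and 11804719 to 18266914 for Emb. Values below are normalised read counts as CPM, that is counts scaled to the same library size, with library totals adjusted by the trimmed mean of M-values. They carry no correction for transcript length, so levels are compared between groups and not between genes. A count was found for 21029 to 21853 genes in the iPax3 libraries, and for 17048, 12850 and 12944 genes in Emb replicates 1 to 3. Of the genes between 10 and 20 CPM in Emb replicate 1, 11.6% had no count in replicate 2 and 12.2% none in replicate 3, whereas none of the 1767 genes at that level in iPax3 replicate 1 was missing from another iPax3 library. The Emb libraries also held markers of other tissues. The 38 neuron markers summed to 133 to 259.6 CPM in iPax3 and 1519.6 to 2554 CPM in Emb. The 26 tendon and cartilage markers summed to 134 to 232 CPM in iPax3 and 1642 to 2223 CPM in Emb, and the 22 fibroblast markers to 519.8 to 867 CPM in iPax3 and 2422 to 2594 CPM in Emb. Single genes carried much of these sums. Col2a1 alone had 931, 951 and 580.4 CPM in Emb. The fibroblast list also holds Tcf4, described below as an E protein gene and so not particular to fibroblasts. Tcf4 had 119, 154 and 122 CPM in iPax3 and 361, 606 and 669.5 CPM in Emb. Their part in the results was not tested. Xist, the X-inactivation transcript, stood at 1.54, 2.098 and 1.897 CPM in iPax3 against 2235, 2185 and 1856 CPM in Emb, and Y-linked Ddx3y at 73.2, 7.15 and 127 CPM in iPax3 against 0.309, 0.744 and 0.588 CPM in Emb, a call that was lost with Emb replicate 1 as the lone Emb library. Of 690 X-linked genes tested, 10.0% were called higher and 7.68% lower, beside 9.25% and 7.63% of autosomal genes.

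Of the 17571 genes tested, 1641 were higher in iPax3 than in Emb (9.34%) and 1342 were lower (7.64%), which makes 17.0% called in either direction. Counts of called list members below are to be read beside these shares. A gene was called when its adjusted p (edgeR quasi-likelihood test with Benjamini-Hochberg adjustment over all genes tested) was under 0.05. The balance of calls varied with the mean level in the group with more. Under 1 CPM 168 genes were called higher and 11 lower, and from 1 to 5 CPM 331 and 53. From 5 to 20 CPM the counts were 195 and 233, from 20 to 100 CPM 347 and 489, and from 100 CPM 600 and 556. The median log2 difference over all genes was 0.24. Log2 differences below are iPax3 minus Emb, so a positive value means higher in iPax3, and ± after one is its standard error. The 3 values of one group lay wholly outside those of the other at 7882 genes (44.9%), 30.9% with iPax3 above and 13.9% with iPax3 below. Of the genes called higher, 501 had no count in any Emb library and a further 71 had one only in Emb replicate 1, the Emb library with the most genes detected. With Emb replicate 1 as the lone Emb library, assumed to vary like the other groups, 352 genes were called higher and 538 lower. Leaving out Emb replicate 1 gave 3417 higher and 1643 lower, Emb replicate 2 gave 1101 higher and 1133 lower, and Emb replicate 3 gave 1013 higher and 1049 lower. Without iPax3 replicate 1 the counts were 830 higher and 662 lower, without replicate 2 they were 864 and 805, and without replicate 3 they were 825 and 668.

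**Figure D1:**
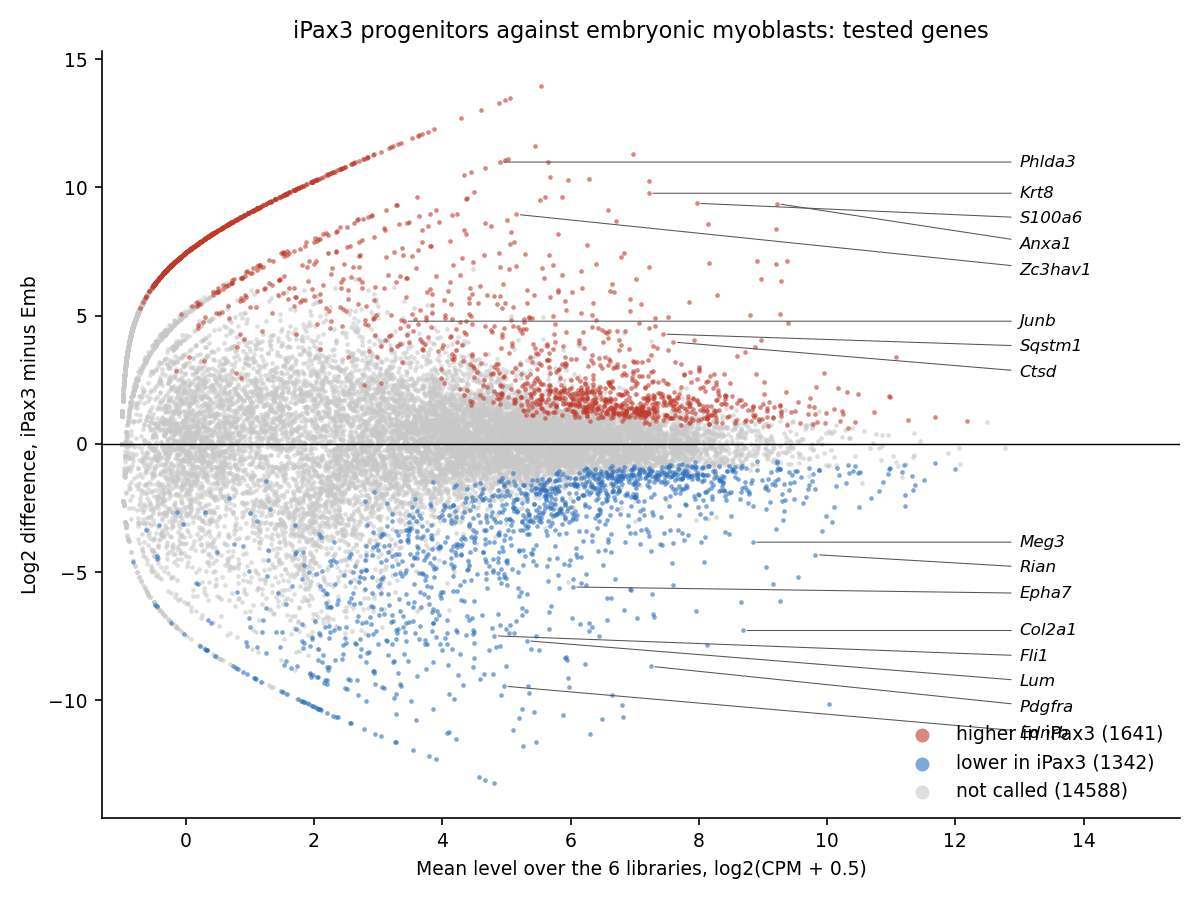
Log2 difference, iPax3 minus Emb, of the 17571 tested genes (y axis) against their mean level over the 6 libraries (x axis, log2 of CPM plus 0.5). Called genes are coloured, 1641 higher in iPax3 and 1342 lower in iPax3, and the names mark the genes with the smallest adjusted p in each direction among those that the text describes. Called genes lie on both sides, but at low levels most of them are higher in iPax3, and the upper edge there is formed by genes with no count in Emb.

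Genes with the smallest adjusted p among those higher in iPax3 were of several kinds. Anxa1 (ENSMUSG00000024659, mm10 chromosome 19, 20373428 to 20390944), which encodes the phospholipid-binding protein annexin A1, had 1050.2, 1506 and 1009 CPM in iPax3 against 1.85, 1.77 and 1.77 CPM in Emb (9.36 ± 0.61, adjusted p = 2.82e-07). The Emb libraries were close to one another and far below every iPax3 library. The simple-epithelium keratin Krt8 had 184, 467 and 239.8 CPM in iPax3 against 0.773, 0.0572 and 0.221 CPM in Emb (9.77 ± 0.74, adjusted p = 1.08e-06). The calcium-binding S100a6 had 465, 473 and 556 CPM in iPax3 against 1.24, 0.172 and 0.883 CPM in Emb (9.38 ± 0.72, adjusted p = 1.08e-06). Both were at a trace in every Emb library. The zinc-finger antiviral protein Zc3hav1 had 58.3, 56.1 and 95.9 CPM in iPax3 against 0, 0.114 and 0.294 CPM in Emb (8.95 ± 0.73, adjusted p = 2.09e-06), and the p53 target Phlda3 had 66.2, 56.5 and 52.7 CPM in iPax3 against 0, 0 and 0.0736 CPM in Emb (10.98 ± 1.03, adjusted p = 5.57e-06). Sqstm1, the autophagy receptor p62, was detected on both sides, with 279, 367 and 341 CPM in iPax3 against 23.1, 11.2 and 16.6 CPM in Emb (4.28 ± 0.36, adjusted p = 2.71e-06). The lysosomal protease Ctsd had 319, 479.5 and 297 CPM in iPax3 against 36.9, 18.1 and 15.1 CPM in Emb (3.97 ± 0.36, adjusted p = 4.54e-06). Both of these kept a clear level in Emb. The guidance protein Sema3e had 539, 787 and 512 CPM in iPax3 against 8.499, 5.21 and 19.3 CPM in Emb (5.80 ± 0.57, adjusted p = 9.07e-06), and the paraspeckle RNA Neat1 had 227, 281 and 404 CPM in iPax3 against 8.81, 13.96 and 14.7 CPM in Emb (4.60 ± 0.48, adjusted p = 1.48e-05). These 9 genes kept their calls in every alternative.

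Other genes were named for a high level in iPax3 among those that rose, and Rps20, mt-Co3 and Ccng1, taken by the same rule, are described below. Vim, the intermediate filament vimentin, had 3394, 4113 and 4253 CPM in iPax3 against 361, 413 and 339 CPM in Emb (3.40 ± 0.40, adjusted p = 4.43e-05). Lgals1, a galactose-binding lectin with a part in muscle cell fusion, had 1076, 1219 and 1569 CPM in iPax3 against 41.6, 42.5 and 62.4 CPM in Emb (4.72 ± 0.61, adjusted p = 1.06e-04). Non-muscle myosin Myh9 had 1529, 2090.3 and 1578 CPM in iPax3 against 242, 247 and 269 CPM in Emb (2.78 ± 0.31, adjusted p = 2.89e-05). In all 3 the lowest iPax3 library was several times the highest Emb library, and the calls held in every alternative. The actin crosslinker Flna had 1765, 2218 and 1654 CPM in iPax3 against 618, 406 and 235 CPM in Emb (2.16 ± 0.39, adjusted p = 0.00151), a call lost with Emb replicate 1 as the lone Emb library. Rack1, a ribosome-associated scaffold, had 1529.6, 1428 and 1536 CPM in iPax3 against 435, 177 and 362 CPM in Emb (2.21 ± 0.35, adjusted p = 5.66e-04) and kept its call in every alternative.

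Among genes lower in iPax3, Lum (ENSMUSG00000036446, mm10 chromosome 10, 97565128 to 97572703), which encodes the matrix proteoglycan lumican, had 0.403, 0.358 and 0.369 CPM in iPax3 against 62.7, 69.6 and 103 CPM in Emb (-7.68 ± 0.46, adjusted p = 1.55e-07). It was a trace in every iPax3 library, and it is one of the fibroblast markers. Pdgfra, a receptor of mesenchymal cells, had 0.5601, 1.02 and 0.632 CPM in iPax3 against 253, 356 and 300.3 CPM in Emb (-8.67 ± 0.73, adjusted p = 2.71e-06). The ephrin receptor Epha7 had 2.71, 3.099 and 2.16 CPM in iPax3 against 129, 85.3 and 168 CPM in Emb (-5.58 ± 0.49, adjusted p = 3.13e-06). The ETS factor Fli1, used by blood and vessel cells, had 0.403, 0.358 and 0.132 CPM in iPax3 against 62.5, 53.5 and 48.5 CPM in Emb (-7.48 ± 0.67, adjusted p = 3.53e-06). In each the highest iPax3 library lay far under the lowest Emb library. The pseudokinase Trib2 had 8.91, 4.93 and 8.93 CPM in iPax3 against 121, 123 and 139 CPM in Emb (-4.07 ± 0.37, adjusted p = 4.02e-06), and the corepressor Runx1t1 had 0.8401, 2.15 and 0.659 CPM in iPax3 against 93.3, 179.9 and 188 CPM in Emb (-6.98 ± 0.66, adjusted p = 6.33e-06). Other genes were named for a high level in Emb among those that fell. The RNA-binding protein gene Hnrnpa1 had 729.9, 605 and 924 CPM in iPax3 against 2884, 5376 and 3706 CPM in Emb (-2.41 ± 0.31, adjusted p = 9.89e-05). Stmn1, a tubulin-sequestering protein of dividing and neural cells, had 217, 213 and 274 CPM in iPax3 against 929, 2363 and 2505 CPM in Emb (-3.04 ± 0.39, adjusted p = 8.68e-05). Hnrnpu, a nuclear scaffold protein, had 330.3, 301 and 383 CPM in iPax3 against 1423, 2044 and 2144 CPM in Emb (-2.47 ± 0.34, adjusted p = 1.58e-04). For these 3 even the lowest Emb library stood well above the highest iPax3 library. Hnrnpa1 has processed copies elsewhere in the genome with which its reads may be shared. These 9 genes kept their calls in every alternative. The nuclear protein prothymosin alpha, Ptma, had 653, 532 and 656 CPM in iPax3 against 773, 3475 and 3781 CPM in Emb (-2.12 ± 0.54, adjusted p = 0.0139). Marcks, a membrane-bound protein that binds actin, had 555, 401 and 375 CPM in iPax3 against 1729.5, 2495 and 3165 CPM in Emb (-2.47 ± 0.51, adjusted p = 0.00418). The imprinted adaptor Grb10, which restrains insulin signalling, had 85.7, 660.0 and 12.5 CPM in iPax3 against 1258, 2189 and 1858 CPM in Emb (-2.81 ± 0.87, adjusted p = 0.0398). Igfbp5, a binding protein of insulin-like growth factors, had 159, 269 and 74.7 CPM in iPax3 against 961, 2064 and 2274 CPM in Emb (-3.40 ± 0.98, adjusted p = 0.0295). In each every iPax3 library was below every Emb library. All 4 calls were lost with Emb replicate 1 as the lone Emb library. Those of Ptma, Grb10 and Igfbp5 were also lost with no low-count filter and without iPax3 replicate 1 or Emb replicate 3, those of Ptma and Igfbp5 without iPax3 replicate 2 or 3, and those of Grb10 and Igfbp5 without Emb replicate 2. That of Grb10 was lost with the 6 libraries alone and without iPax7 replicate 1, and that of Igfbp5 with the replicate block.

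The regulators of muscle progenitors split. Six4, Met and Dmrt2 were at levels that overlapped between the groups, while most members that were called fell, several of them to a trace. Of 24 premyogenic lineage factors tested, 12 fell and 1 rose, with a median log2 difference of -2.83. Pax3 itself had 344, 355 and 295 CPM in iPax3 and 139.8, 64.1 and 82.8 CPM in Emb (1.79 ± 0.70, adjusted p = 0.0904). Every iPax3 library was above every Emb library, but the gene was not called except when the 6 libraries were fitted alone. Six4, a homeobox factor that acts upstream of the determination genes, had 46.8, 37.3 and 59.6 CPM in iPax3 and 81.4, 29.7 and 40.6 CPM in Emb (-0.08 ± 0.46, adjusted p = 0.93). The groups overlapped, and the direction of the difference turned round in 3 alternatives. Dmrt2, a dermomyotome factor named after its values were seen, had 101, 42.5 and 38.7 CPM in iPax3 and 97.2, 157 and 94.2 CPM in Emb (-0.94 ± 1.03, adjusted p = 0.57). The one member that rose, Pitx3, a homeobox factor named after its values were seen, had 5.36, 5.05 and 2.35 CPM in iPax3 and no count in any Emb library (adjusted p = 0.00968). Against a floor of 3 counts over the Emb group this was at least 62-fold higher, a call lost with Emb replicate 1 as the lone Emb library.

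Pax7 had 0.2800, 0.191 and 0.158 CPM in iPax3 against 20.5, 33.2 and 29.7 CPM in Emb (-7.00 ± 1.40, adjusted p = 0.00374). The iPax3 values rest on 30 counts in all. Dach1, a nuclear cofactor that works with Eya1, had 0.4901, 0.596 and 0.343 CPM in iPax3 against 88.6, 82.8 and 88.4 CPM in Emb (-7.49 ± 0.70, adjusted p = 5.36e-06). Eya1, a phosphatase and transcriptional coactivator, had 16.3, 21.9 and 17.00 CPM in iPax3 against 84.7, 133 and 98.2 CPM in Emb (-2.52 ± 0.54, adjusted p = 0.005202). In iPax3, Dach1 was at a trace and Eya1 at a partial level. Meox1, a homeobox factor of the somite, had 1.47, 1.38 and 0.896 CPM in iPax3 against 164, 98.4 and 40.2 CPM in Emb (-6.33 ± 1.01, adjusted p = 5.97e-04). Its paralog Meox2, which acts in limb muscle, had 0.0525, 0 and 0.105 CPM in iPax3 against 61.3, 24.4 and 31.9 CPM in Emb (-9.41 ± 1.17, adjusted p = 6.96e-05). Zic1, a zinc-finger factor of dorsal somite and neural tube, had 3.43, 0.477 and 3.400 CPM in iPax3 against 406, 608 and 659 CPM in Emb (-7.83 ± 1.03, adjusted p = 1.66e-04). All 3 were near 0 in iPax3 and abundant in Emb. Lbx1, which marks progenitors that migrate into the limb, had 0.0875, 0.143 and 0.0791 CPM in iPax3 against 11.2, 91.98 and 58.8 CPM in Emb (-8.96 ± 1.80, adjusted p = 0.00321). Sim1, a factor of the ventrolateral dermomyotome, had 0, 0.0238 and 0 CPM in iPax3 against 46.9, 17.05 and 34.6 CPM in Emb (-11.27 ± 1.56, adjusted p = 1.67e-04). Both were close to 0 in all iPax3 libraries. Met, the receptor through which limb muscle progenitors are called to migrate, had 114, 138 and 101 CPM in iPax3 and 99.7, 134 and 109 CPM in Emb (0.04 ± 0.60, adjusted p = 0.98), and its direction turned round in 6 alternatives. The calls of Eya1 and Lbx1 were lost with Emb replicate 1 as the lone Emb library. The count of lineage factors that rose was 2 without Emb replicate 1.

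Of 20 genes of muscle determination, differentiation and fusion tested, 2 rose and 0 fell. The share that rose was near that over all genes, 9.34%. The median log2 difference was -0.26, whose sign turned round without iPax3 replicate 3, without Emb replicate 2 or 3, with no low-count filter and with Emb replicate 1 as the lone Emb library. Myf5, the first determination factor of the myotome, had 283, 170.1 and 292 CPM in iPax3 against 21.4, 26.3 and 35.01 CPM in Emb (3.17 ± 0.96, adjusted p = 0.0342). The groups were far apart, but the call was lost when any 1 of the 6 libraries was left out, with no low-count filter and with Emb replicate 1 as the lone Emb library. Mef2d, a MADS-box partner of the myogenic factors, had 64.4, 68.9 and 84.1 CPM in iPax3 against 13.6, 20.02 and 25.2 CPM in Emb (1.89 ± 0.35, adjusted p = 0.00195) and was called in every alternative. Myod1 had 9.35, 6.05 and 0.264 CPM in iPax3 and 5.64, 30.03 and 43.3 CPM in Emb (-2.33 ± 1.38, adjusted p = 0.26). Myog had 96.6, 72.4 and 30.4 CPM in iPax3 and 108, 609.9 and 784 CPM in Emb (-2.91 ± 1.19, adjusted p = 0.11). The Myod1 values overlapped, while all iPax3 values of Myog lay below all Emb values. Myog was called lower when the 6 libraries were fitted alone, without Emb replicate 1, without iPax7 replicate 1 and by DESeq2. Cdh15, the cadherin of myoblasts, had 89.3, 62.95 and 87.3 CPM in iPax3 and 18.2, 40.2 and 42.5 CPM in Emb (1.25 ± 1.24, adjusted p = 0.53). Chrna1, a muscle acetylcholine receptor subunit named after its values were seen, had 327, 80.9 and 242 CPM in iPax3 and 0.309, 28.1 and 3.899 CPM in Emb (4.32 ± 1.51, adjusted p = 0.0641). For both every iPax3 library was above every Emb library without a call, and Chrna1 was called higher without Emb replicate 2, without iPax7 replicate 1 and by DESeq2. The count that rose was 1 without iPax3 replicate 1, 2 or 3 or Emb replicate 1 or 3, and the count that fell was 1 without Emb replicate 1.

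Of 28 markers of satellite cells, the resident progenitors of adult muscle, 8 rose and 5 fell (median 1.17). The 8 that rose encode membrane proteins. The heparan sulphate proteoglycan Sdc4 had 139, 82.4 and 149 CPM in iPax3 against 14.4, 41.01 and 29.6 CPM in Emb (2.12 ± 0.43, adjusted p = 0.00369). Fgfr4, the fibroblast growth factor receptor of myoblasts, had 108, 70.2 and 113 CPM in iPax3 against 6.26, 0.114 and 15.8 CPM in Emb (3.72 ± 1.12, adjusted p = 0.0341). The tetraspanin Cd82, named after its values were seen, had 61.5, 33.7 and 49.04 CPM in iPax3 against 0.386, 5.38 and 0.0736 CPM in Emb (4.60 ± 1.32, adjusted p = 0.0264). In all 3 the iPax3 libraries were close together and the Emb libraries were uneven. The call of Fgfr4 was lost without any 1 iPax3 replicate or Emb replicate 1, and that of Cd82 without iPax3 replicate 1 or 3 or Emb replicate 1 or 3, and both were lost with the 6 libraries alone, with no low-count filter and with Emb replicate 1 as the lone Emb library. Fgfr4 was also lost under the replicate block. Vcam1, on which the iPax3 cells had been sorted, had 368, 182 and 362 CPM in iPax3 and 41.4, 103 and 144 CPM in Emb (1.66 ± 0.58, adjusted p = 0.0605). It was called higher without iPax7 replicate 1, with the replicate block and by DESeq2. Besides Pax7, the Notch target Hey1, at 1.94, 2.67 and 2.71 CPM in iPax3 against 19.8, 63.5 and 54.9 CPM in Emb (-4.24 ± 0.61, adjusted p = 2.42e-04), was among those that fell. Ncam1, an adhesion molecule of neurons and muscle, had 35.8, 81.2 and 30.6 CPM in iPax3 against 129.6, 261 and 238 CPM in Emb (-2.09 ± 0.42, adjusted p = 0.00323), a call lost with Emb replicate 1 as the lone Emb library. The count that rose was 5 without iPax3 replicate 3, and the count that fell was 3 without iPax3 replicate 1.

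Of 58 sarcomere and excitation-contraction genes, 8 rose and 0 fell (median 0.77), beside 9.34% higher and 7.64% lower over all genes. No count in Emb was found for 14 of the 62 listed, and for 1475 of all 17571 genes tested. The first count can include listed genes that were not tested, so its base differs from the second. Embryonic myosin Myh3 had 358, 400.2 and 22.8 CPM in iPax3 and 103, 160.4 and 211 CPM in Emb (0.72 ± 1.12, adjusted p = 0.71). The muscle intermediate filament Des had 53.9, 58.7 and 16.1 CPM in iPax3 and 23.3, 23.3 and 43.8 CPM in Emb (0.51 ± 0.64, adjusted p = 0.63). In both iPax3 replicate 3 lay under every other library. The junctophilin Jph2, which ties the sarcoplasmic reticulum to the surface membrane, had 102, 73.8 and 53.6 CPM in iPax3 against 1.08, 0.229 and 0.0736 CPM in Emb (7.38 ± 1.18, adjusted p = 5.97e-04). The troponin Tnnt3 had 91.8, 56.8 and 163 CPM in iPax3 against 2.32, 0.114 and 0.0736 CPM in Emb (6.98 ± 1.62, adjusted p = 0.00957). Emb replicate 1 was the highest Emb library for both, and neither was called with it as the lone Emb library. Tropomyosin Tpm1, which is also part of stress fibres, had 2989, 3901 and 2494 CPM in iPax3 against 538, 1039 and 1029 CPM in Emb (1.85 ± 0.38, adjusted p = 0.00409) and kept its call in every alternative. The count that rose was 5 without iPax3 replicate 1 or 2 or Emb replicate 3 and 19 without Emb replicate 1.

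**Figure D2:**
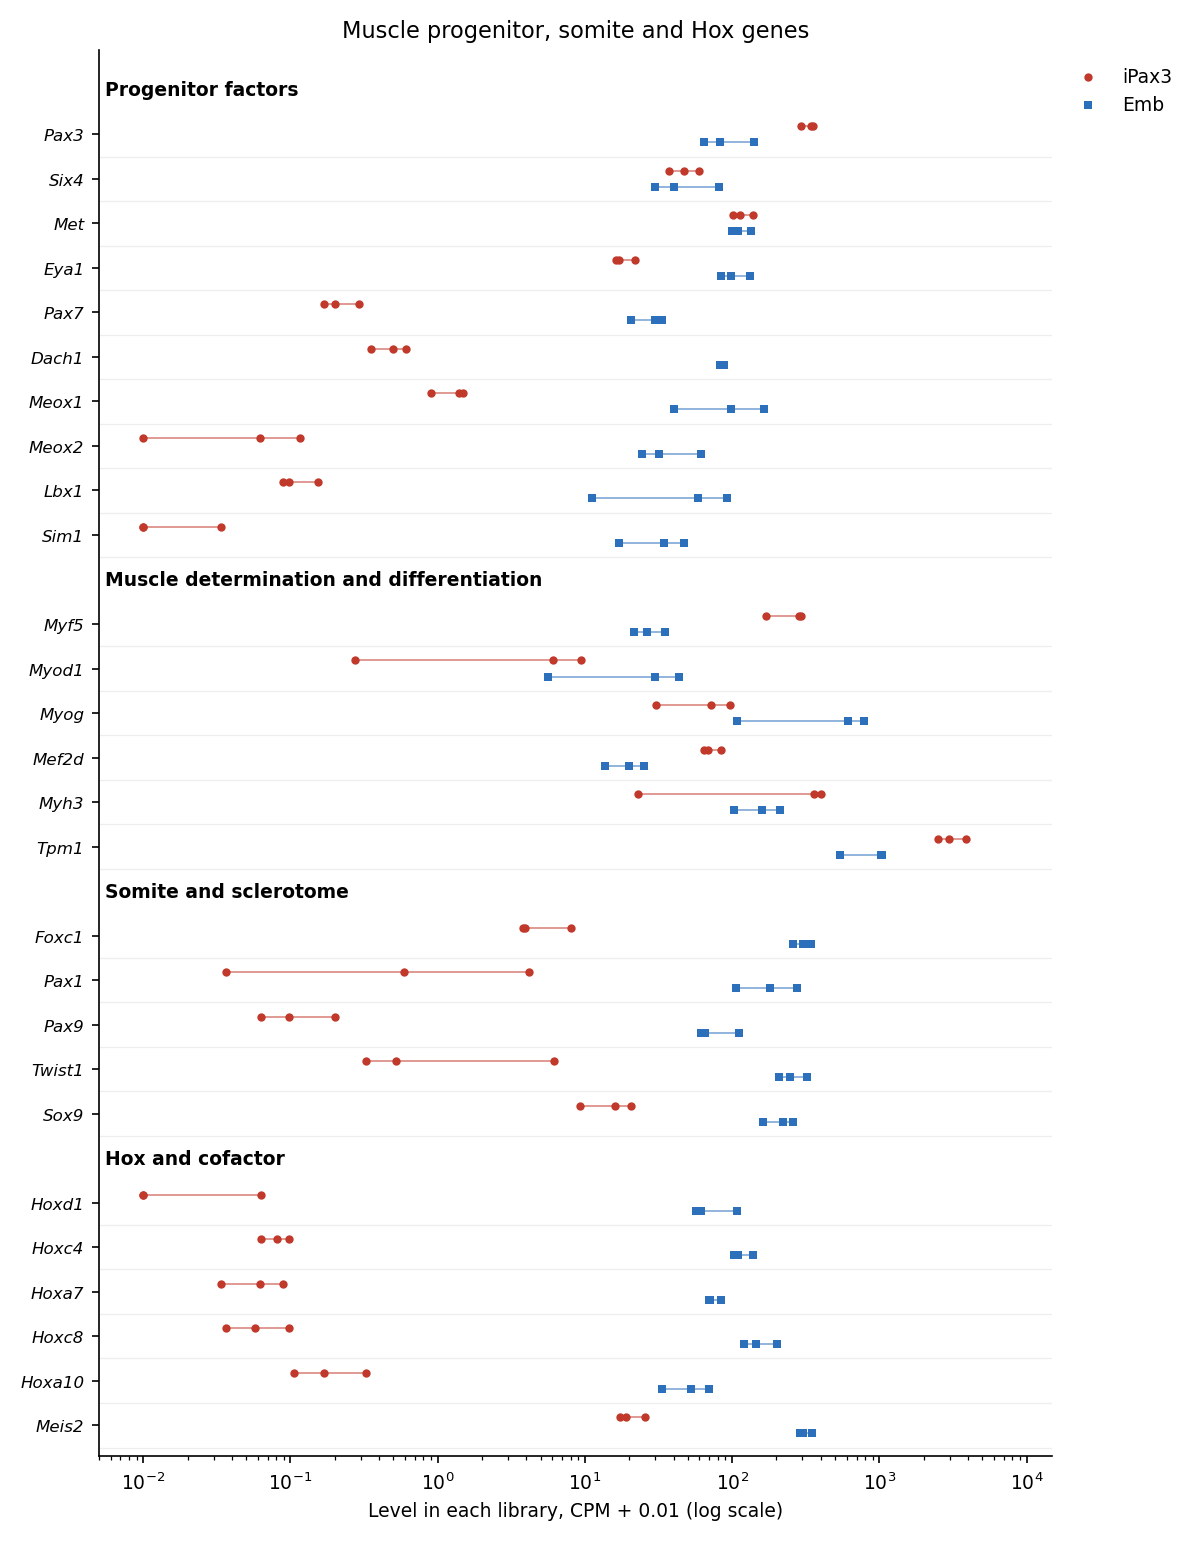
Level in each of the 6 libraries (x axis, CPM plus 0.01 on a log scale) of muscle progenitor, somite and Hox genes that the text names, iPax3 libraries in the upper row of each pair and Emb libraries in the lower row. Pax3 and Myf5 lie to the right in iPax3, Six4 and Met overlap, and the Hox and sclerotome factors lie far to the left in iPax3.

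Hox genes had the highest share of members that fell among the gene lists examined here, with 27 of 37 tested falling and 0 rising. Their median was -8.04, or -7.80 when genes at 0 in a group are set at their bound. Hoxc4, of the neck and anterior trunk, had 0.0875, 0.0715 and 0.0527 CPM in iPax3 against 139, 103 and 109 CPM in Emb (-10.56 ± 1.03, adjusted p = 8.65e-06). Hoxc8, of the thoracic trunk, had 0.0875, 0.0477 and 0.0264 CPM in iPax3 against 120.0, 203 and 146 CPM in Emb (-11.30 ± 1.46, adjusted p = 1.06e-04). Hoxa7 had 0.0525, 0.0238 and 0.0791 CPM in iPax3 against 71.00, 84.5 and 69.2 CPM in Emb (-10.36 ± 1.28, adjusted p = 6.54e-05). Each was close to 0 in every iPax3 library. The more posterior Hoxa10 had 0.315, 0.0953 and 0.158 CPM in iPax3 against 33.5, 70.01 and 52.2 CPM in Emb (-8.04 ± 0.81, adjusted p = 1.26e-05). Hoxd1, at the other end of its cluster and named after its values were seen, had 0, 0 and 0.0527 CPM in iPax3 against 61.03, 109 and 56.6 CPM in Emb (-11.78 ± 1.75, adjusted p = 3.19e-04). These 5 were called in every alternative. Of 2 further members named after their values were seen, Hoxb6 had no count in iPax3, against 18.5, 16.5 and 19.5 CPM in Emb, at least 829-fold lower. Hoxb9 had 9.15, 55.7 and 1.45 CPM in iPax3 and 102, 110.1 and 47.1 CPM in Emb (-1.96 ± 1.02, adjusted p = 0.20), with iPax3 replicate 2 inside the Emb range, and it was called without that replicate. Meis2, a DNA-binding cofactor of Hox proteins, fell but stayed expressed, with 19.13, 17.3 and 25.8 CPM in iPax3 against 291, 303 and 347 CPM in Emb (-3.92 ± 0.58, adjusted p = 2.93e-04). The count of Hox genes that fell was 18 without iPax3 replicate 3, 20 without iPax3 replicate 1, 21 without iPax3 replicate 2, 25 without Emb replicate 3, 26 without Emb replicate 2 and 27 without Emb replicate 1. Neuron and cartilage markers, whose tissues carry Hox transcripts too, differed in the same direction, and their part was not tested.

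Factors of the sclerotome, the ventral somite that forms the axial skeleton, fell as well. Of 17 somite and sclerotome factors tested, 10 fell and 0 rose (median -4.45). Foxc1, a forkhead factor of somitic mesoderm, had 3.78, 8.06 and 3.900 CPM in iPax3 against 342, 303 and 259 CPM in Emb (-5.84 ± 0.60, adjusted p = 1.48e-05). Pax9 had 0.0875, 0.191 and 0.0527 CPM in iPax3 against 65.7, 111 and 61.3 CPM in Emb (-9.42 ± 1.35, adjusted p = 2.35e-04). Pax1 had 0.578, 4.17 and 0.0264 CPM in iPax3 against 274, 106 and 180.2 CPM in Emb (-6.87 ± 1.39, adjusted p = 0.00411). Pax1 and Pax9, which define sclerotome, were clearly expressed in all Emb libraries. The chondrogenic factor Sox9 had 9.22, 15.99 and 20.4 CPM in iPax3 against 161, 221 and 261 CPM in Emb (-3.82 ± 0.65, adjusted p = 9.96e-04). Twist1, a basic helix-loop-helix factor of mesenchyme that restrains myogenesis, had 0.508, 6.17 and 0.316 CPM in iPax3 against 209, 246 and 324 CPM in Emb (-6.80 ± 0.96, adjusted p = 2.38e-04). iPax3 replicate 2 held the most Twist1 and Pax1 of its group and still lay far under Emb. Of 23 limb patterning genes 11 fell and 0 rose (median -2.62). Tbx5, the forelimb T-box factor, had 0.0175, 0.0715 and 0.0264 CPM in iPax3 against 2.01, 18.1 and 49.5 CPM in Emb (-9.05 ± 1.82, adjusted p = 0.00322), a call lost with Emb replicate 1 as the lone Emb library. The limb count that fell was 7 without iPax3 replicate 3, and the limb count that rose was 3 without Emb replicate 1.

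Markers of neurons, neural crest and connective tissue fell in part, some of them to a trace in iPax3. Of 30 neuron markers tested 19 fell and 0 rose (median -6.45). The RNA-binding protein Elavl4 had 0.175, 0.572 and 0.2899 CPM in iPax3 against 119, 99.3 and 145 CPM in Emb (-8.44 ± 1.29, adjusted p = 4.17e-04). Isl1, a factor of motor and sensory neurons and of the second heart field, had 0.0175, 0.0238 and 0.0264 CPM in iPax3 against 84.1, 102 and 75.8 CPM in Emb (-11.61 ± 1.71, adjusted p = 2.87e-04). Neuronal transcripts were present in all 3 Emb libraries. Of 19 neural crest and Schwann markers 10 fell and 0 rose (median -3.18). The endothelin receptor Ednrb had 0.0525, 0.119 and 0.0791 CPM in iPax3 against 44.7, 70.6 and 68.3 CPM in Emb (-9.44 ± 0.82, adjusted p = 3.13e-06). Of 22 fibroblast markers 13 fell and 2 rose (median -2.78), and of 26 tendon and cartilage markers 16 fell and 1 rose (median -3.72). The fibroblast markers that fell included Tcf4, described below as an E protein gene. The 22 leukocyte markers summed to 5.22 to 38.2 CPM in iPax3 and 0.458 to 11.7 CPM in Emb, and the 22 endothelial markers to 26.4 to 41.00 CPM in iPax3 and 40.5 to 83.4 CPM in Emb. The neuron count that fell was 12 without iPax3 replicate 1 or 3, the fibroblast count 8 without iPax3 replicate 3, and the crest count 3 without iPax3 replicate 2, 4 without iPax3 replicate 1 and 5 without iPax3 replicate 3. Without Emb replicate 1, 1 neuron marker and 1 crest marker rose, and the cartilage count that rose was 0 without iPax3 replicate 1, 2 or 3 or Emb replicate 3. In bulk RNA, fewer cells of a type and less RNA per cell cannot be told apart.

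Genes of the Wnt pathway, whose ligands pattern the dorsal somite, fell in part. Of 36 Wnt modulators and targets 14 fell and 0 rose (median -2.02). The receptor Fzd7 had 38.8, 41.8 and 46.1 CPM in iPax3 against 220.0, 278 and 294 CPM in Emb (-2.64 ± 0.34, adjusted p = 8.88e-05), and its relative Fzd2 had 27.5, 32.6 and 18.7 CPM in iPax3 against 158, 397 and 229 CPM in Emb (-3.32 ± 0.55, adjusted p = 8.45e-04). The secreted modulator Sfrp1 had 2.59, 9.65 and 1.63 CPM in iPax3 against 143, 257 and 323 CPM in Emb (-5.70 ± 1.14, adjusted p = 0.00379). The inhibitor Dkk2 had 0.455, 1.55 and 1.897 CPM in iPax3 against 26.4, 16.3 and 32.96 CPM in Emb (-4.28 ± 0.72, adjusted p = 9.78e-04). Lef1, a nuclear effector and target of the pathway, had 2.99, 4.62 and 1.61 CPM in iPax3 against 34.9, 45.8 and 58.8 CPM in Emb (-3.92 ± 0.77, adjusted p = 0.00277). In all 5 the groups did not overlap and the call held in every alternative. The coreceptor Lrp5, named after its values were seen, had 94.4, 98.8 and 91.9 CPM in iPax3 and 58.6, 130.2 and 74.7 CPM in Emb (0.11 ± 0.32, adjusted p = 0.85). The count that fell was 8 without iPax3 replicate 1 or 3, and the count that rose was 1 without Emb replicate 1.

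Partners and antagonists of the myogenic factors differed in part. The myogenic basic helix-loop-helix factors bind DNA with E proteins, and Id, Hes and Twist proteins interfere with them. Of 19 such genes tested, 5 fell and 2 rose (median -0.45, which was above 0 without Emb replicate 3 and with Emb replicate 1 as the lone Emb library). The share that rose was near that over all genes, 9.34%, and 7.64% of all genes fell. Twist2, the paralog of Twist1, had 0.105, 0.405 and 0 CPM in iPax3 against 7.11, 9.55 and 29.1 CPM in Emb (-6.44 ± 1.42, adjusted p = 0.005998). The Notch target Hes1, a repressor of differentiation, had 13.4, 16.97 and 14.9 CPM in iPax3 against 46.5, 92.3 and 152 CPM in Emb (-2.68 ± 0.43, adjusted p = 6.47e-04). The E protein gene Tcf4 had 119, 154 and 122 CPM in iPax3 against 361, 606 and 669.5 CPM in Emb (-2.05 ± 0.37, adjusted p = 0.00164). In all 3 every iPax3 library was below every Emb library. The E2A gene Tcf3, which encodes E12 and E47, had 92.3, 92.3 and 108 CPM in iPax3 against 178, 278 and 215 CPM in Emb (-1.20 ± 0.26, adjusted p = 0.00571). None of the Id genes was called, with Id3 at 197, 173 and 130.4 CPM in iPax3 and 57.5, 93.4 and 64.9 CPM in Emb (1.21 ± 0.61, adjusted p = 0.18). Bhlhe40, a repressor that can bind E boxes, had 5.601, 44.05 and 4.74 CPM in iPax3 against 2.47, 0.572 and 0.662 CPM in Emb (3.89 ± 0.96, adjusted p = 0.0129), mostly in iPax3 replicate 2. That call was lost without iPax3 replicate 2 or Emb replicate 2 or 3, with no low-count filter, with the 6 libraries alone and with Emb replicate 1 as the lone Emb library. The calls of Hes1, Tcf4 and Tcf3 were lost under the last of these, and that of Twist2 with the 6 libraries alone. Id3 was called higher with the 6 libraries alone and without iPax7 replicate 1. The count that rose was 0 without iPax3 replicate 2 or Emb replicate 2 or 3 and 1 without iPax3 replicate 1 or 3.

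Among 14 genes of limb muscle migration tested, 5 fell and 0 rose (median -0.94). The chemokine Cxcl12, which guides migrating progenitors, had 23.8, 15.6 and 26.2 CPM in iPax3 against 255, 82.6 and 111 CPM in Emb (-2.77 ± 0.50, adjusted p = 0.00141), while its receptor Cxcr4 had 11.4, 10.1 and 5.14 CPM in iPax3 and 11.6, 2.46 and 12.4 CPM in Emb (0.01 ± 0.96, adjusted p = 1.0). The ligand was separated between the groups and the receptor overlapped. The ephrin ligand Efna5 had 53.6, 49.2 and 36.7 CPM in iPax3 against 175, 211 and 209 CPM in Emb (-2.09 ± 0.51, adjusted p = 0.01099). Cdh11, a cadherin of mesenchyme, had 57.1, 33.6 and 15.1 CPM in iPax3 against 475, 318 and 459 CPM in Emb (-3.56 ± 0.76, adjusted p = 0.00572). Spsb1, an adaptor of ubiquitin ligases, had 4.83, 13.4 and 6.17 CPM in iPax3 against 34.9, 91.5 and 73.9 CPM in Emb (-3.04 ± 0.58, adjusted p = 0.00212). The calls of Efna5 and Spsb1 were lost with Emb replicate 1 as the lone Emb library, and that of Efna5 without iPax3 replicate 3.

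Retinoic acid, made by aldehyde dehydrogenases, patterns somites and limbs. Of 17 retinoic acid genes 8 fell and 1 rose (median -1.69). The binding protein Crabp2 had 11.4, 10.2 and 8.78 CPM in iPax3 against 218, 144 and 198 CPM in Emb (-4.20 ± 0.49, adjusted p = 4.29e-05). Rdh10, which oxidises retinol, had 6.07, 18.6 and 5.82 CPM in iPax3 against 81.97, 73.8 and 56.7 CPM in Emb (-2.80 ± 0.61, adjusted p = 0.005600). Both kept a low level in iPax3. Crabp1 had 0.0875, 0.477 and 0.105 CPM in iPax3 against 31.6, 61.7 and 27.1 CPM in Emb (-7.46 ± 1.39, adjusted p = 0.00187). The member that rose was Aldh1a3, a retinaldehyde dehydrogenase, with 8.19, 67.7 and 3.61 CPM in iPax3 and no count in Emb (adjusted p = 0.001001). It was at least 389-fold higher, mostly through iPax3 replicate 2. The count that fell was 5 without iPax3 replicate 2.

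In the hedgehog list 4 of 14 fell and 0 rose (median -0.44). Beside this and the Notch count below stand 9.34% higher and 7.64% lower over all genes. Ptch1, receptor and target of the pathway, had 35.1, 23.2 and 41.2 CPM in iPax3 against 277, 433 and 315 CPM in Emb (-3.36 ± 0.57, adjusted p = 0.001003). The coreceptor Gas1 had 7.39, 10.8 and 6.905 CPM in iPax3 against 179, 378 and 578 CPM in Emb (-5.50 ± 0.81, adjusted p = 4.01e-04). Both were called in every alternative. The signal transducer Smo, named after its values were seen, had 105, 91.6 and 96.4 CPM in iPax3 and 95.6, 93.9 and 69.7 CPM in Emb (0.17 ± 0.47, adjusted p = 0.84). Of 25 Notch pathway genes 5 fell and 1 rose (median -1.24). The ligand Jag1 had 4.48, 6.82 and 2.13 CPM in iPax3 against 35.2, 22.2 and 79.5 CPM in Emb (-3.35 ± 0.65, adjusted p = 0.00268). The receptor Notch2, also named after its values were seen, had 115, 109 and 114 CPM in iPax3 and 107, 87.00 and 78.1 CPM in Emb (0.32 ± 0.43, adjusted p = 0.66). Smo overlapped between the groups, whereas every iPax3 library was above every Emb library for Notch2, and neither was called. The Notch count that rose was 2 without Emb replicate 1.

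Of 15 IGF genes 4 fell and 2 rose (median -1.23). The ligand Igf1, which drives muscle growth, had 4.62, 3.77 and 0.949 CPM in iPax3 against 183, 369 and 374 CPM in Emb (-6.62 ± 0.88, adjusted p = 1.83e-04). The binding protein Igfbp4 had 20.9, 22.9 and 20.1 CPM in iPax3 against 187, 217 and 302 CPM in Emb (-3.47 ± 0.43, adjusted p = 6.54e-05). Another binding protein, Igfbp7, had 33.8, 39.6 and 6.38 CPM in iPax3 against 0.618, 0.172 and 0.441 CPM in Emb (6.03 ± 0.70, adjusted p = 4.10e-05). Binding proteins of the family differed in opposite directions. Of 39 TGF-beta, BMP and activin genes 8 fell and 2 rose (median -0.52). The receptor Tgfbr1 had 149.8, 188 and 130.4 CPM in iPax3 against 708, 1173 and 827 CPM in Emb (-2.53 ± 0.38, adjusted p = 3.15e-04). The ligand Bmp5 had 0.2100, 0.453 and 0.132 CPM in iPax3 against 20.8, 26.8 and 18.2 CPM in Emb (-6.34 ± 1.10, adjusted p = 0.00116). Both held in every alternative. Among 25 FGF receptors and feedback inhibitors 5 fell and 3 rose (median -0.41). The share of FGF genes that rose was near that over all genes. Over all genes 9.34% were higher and 7.64% lower. Fgfr3 had 2.42, 1.55 and 1.21 CPM in iPax3 against 24.3, 32.7 and 28.1 CPM in Emb (-4.03 ± 0.67, adjusted p = 8.77e-04). Dusp6, a feedback inhibitor of FGF signalling, had 179, 194 and 178 CPM in iPax3 and 261, 119.8 and 131 CPM in Emb (0.11 ± 0.32, adjusted p = 0.85). The iPax3 medium held bFGF, and its part in these values was not tested. The IGF count that fell was 2 without iPax3 replicate 1 or 3 or Emb replicate 3, and the TGF-beta count 5 without iPax3 replicate 1 or 3. The FGF count that fell was 1 without iPax3 replicate 1 or 3, 2 without Emb replicate 3 and 3 without iPax3 replicate 2 or Emb replicate 2. The TGF-beta count that rose was 4 without Emb replicate 1, and the FGF count that rose was 0 without iPax3 replicate 3 and 1 without iPax3 replicate 1 or 2 or Emb replicate 3.

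Genes of S phase and mitosis moved little as a list, and single G1 regulators differed. Of 44 S phase and mitosis genes 4 rose and 1 fell, with a median of 0.25 beside 0.24 over all genes, and of -0.03 with Emb replicate 1 as the lone Emb library. The share that rose was near that over all genes, 9.34%, and 7.64% of all genes fell. Mki67, a marker of cycling cells, had 476, 348 and 472 CPM in iPax3 and 791, 397 and 739 CPM in Emb (-0.57 ± 0.35, adjusted p = 0.28). Ccnd1, the D-type cyclin that opens the G1 phase, had 527, 452 and 561 CPM in iPax3 against 113, 88.4 and 111 CPM in Emb (2.30 ± 0.31, adjusted p = 1.44e-04). Its relative Ccnd2 had 934, 878 and 696 CPM in iPax3 and 567, 843 and 805 CPM in Emb (0.18 ± 0.45, adjusted p = 0.82). Ccnd1 was separated between the groups and Ccnd2 overlapped. The G1 kinase Cdk6 had 245, 228 and 270.2 CPM in iPax3 against 59.95, 79.7 and 63.7 CPM in Emb (1.87 ± 0.40, adjusted p = 0.00485), a call lost with Emb replicate 1 as the lone Emb library. Mycl, of the Myc family, had 13.4, 9.22 and 7.14 CPM in iPax3 against 59.7, 106 and 243 CPM in Emb (-3.78 ± 0.63, adjusted p = 8.78e-04). The S phase and mitosis count that rose was 2 without iPax3 replicate 1, 2 or 3 or Emb replicate 2 or 3, and the count that fell was 0 without iPax3 replicate 1 or 2 or Emb replicate 2 or 3.

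Of 24 CDK inhibitors and p53 genes tested, 11 rose and 2 fell (median 1.98, or 1.55 with genes at 0 in a group at their bound). p53 is a stress-activated transcription factor whose targets include inhibitors of the cell cycle and its own ubiquitin ligase. Cdkn2a, the locus of p16Ink4a and p19Arf, had 114, 90.00 and 100.2 CPM in iPax3 against 0, 0 and 0.221 CPM in Emb (10.39 ± 1.23, adjusted p = 8.68e-05). Mdm2, the ubiquitin ligase of p53, had 528, 666 and 612 CPM in iPax3 against 93.4, 119 and 137 CPM in Emb (2.37 ± 0.28, adjusted p = 4.16e-05). Cdkn1a, which encodes p21, had 253, 318 and 206 CPM in iPax3 against 15.1, 65.2 and 67.1 CPM in Emb (2.40 ± 0.54, adjusted p = 0.006996). In these 3 every iPax3 library was above every Emb library. Ccng1, cyclin G1, had 1141, 1406 and 1124 CPM in iPax3 against 23.02, 0.972 and 20.7 CPM in Emb (6.36 ± 0.78, adjusted p = 9.12e-05). The death receptor Eda2r had 207, 207 and 159 CPM in iPax3 against 0.8499, 0 and 0.221 CPM in Emb (9.11 ± 0.97, adjusted p = 2.00e-05). These 5 genes kept their calls in every alternative. Trp53, the gene of p53 itself, named after its values were seen, had 102, 89.2 and 106 CPM in iPax3 and 66.7, 45.9 and 45.3 CPM in Emb (0.91 ± 0.36, adjusted p = 0.0903) and was called without Emb replicate 1 and without iPax7 replicate 1. The inhibitor Cdkn1b had 46.2, 45.6 and 52.8 CPM in iPax3 against 111, 171 and 222 CPM in Emb (-1.80 ± 0.32, adjusted p = 0.00132), a call lost with Emb replicate 1 as the lone Emb library. The count that fell was 1 without iPax3 replicate 1, 2 or 3. The iPax3 cells had been passaged and the Emb cells had not, and the part of culture was not tested.

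The promoter windows of the p53 list were searched for the p53 half-site in the 250 bases before the transcription start (RefSeq, GRCm38.p6), on both strands. Of the 10 members that rose and had a window, 3 held a match, Ccng1, Cdkn1a and Mdm2, and of the 8 that were not called, 4 held one. These 3 windows are printed because they belong to the abundant p53 genes that rose, on the coding strand, with the matches in capitals. They lie at chr17:29090729-29090978 on the plus strand, chr11:40755287-40755536 on the minus strand and chr10:117710759-117711008 on the minus strand.
Cdkn1a: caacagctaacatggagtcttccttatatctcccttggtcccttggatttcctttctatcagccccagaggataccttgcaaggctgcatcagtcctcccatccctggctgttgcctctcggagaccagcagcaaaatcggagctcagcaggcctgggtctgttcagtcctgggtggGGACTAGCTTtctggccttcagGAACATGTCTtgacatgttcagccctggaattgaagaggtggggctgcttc
Ccng1: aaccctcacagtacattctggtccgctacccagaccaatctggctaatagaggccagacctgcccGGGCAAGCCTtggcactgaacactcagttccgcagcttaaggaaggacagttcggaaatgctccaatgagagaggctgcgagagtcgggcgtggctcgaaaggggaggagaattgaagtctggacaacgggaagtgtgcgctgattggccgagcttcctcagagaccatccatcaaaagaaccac
Mdm2: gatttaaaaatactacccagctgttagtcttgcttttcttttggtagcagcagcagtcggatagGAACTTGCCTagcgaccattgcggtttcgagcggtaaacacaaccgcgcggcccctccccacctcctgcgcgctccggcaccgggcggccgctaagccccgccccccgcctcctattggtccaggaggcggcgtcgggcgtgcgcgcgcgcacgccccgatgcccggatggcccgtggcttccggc
Over all tested genes with a window 7.37% held the motif, beside 8.14% of the genes called higher and 8.13% of those called lower. A match describes letters in the window and no more.

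**Figure D3:**
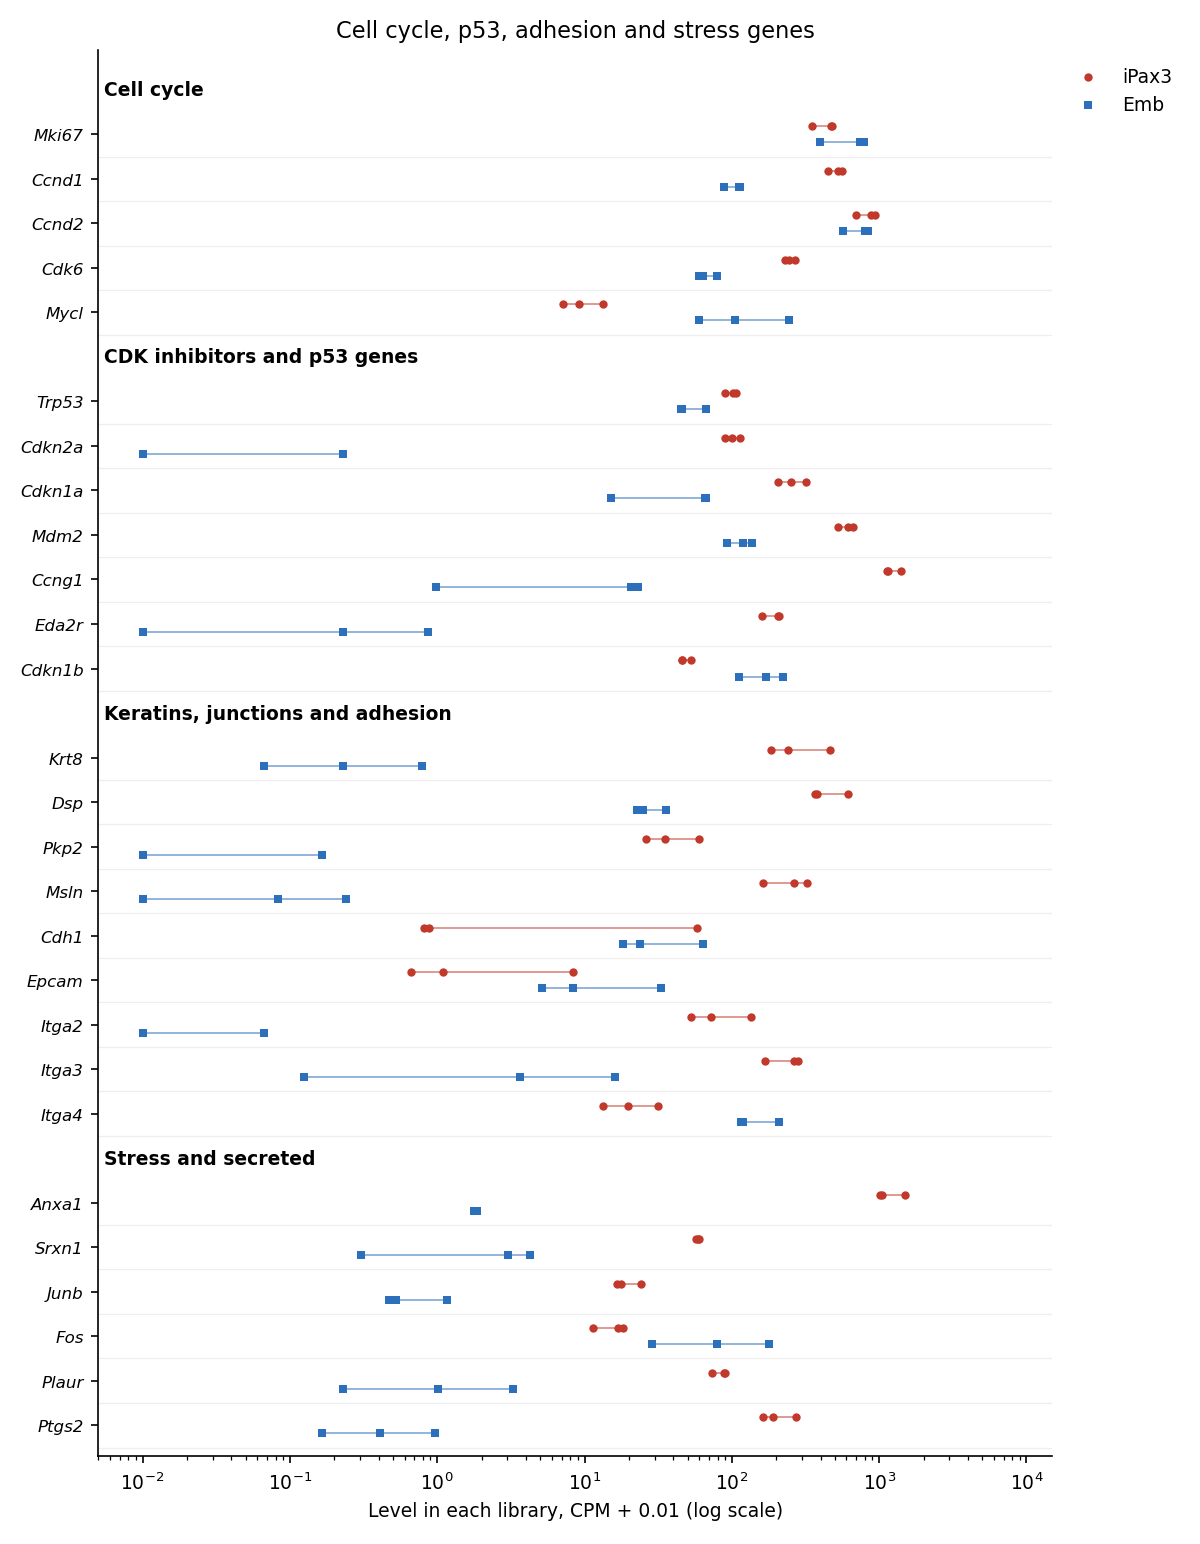
Level in each of the 6 libraries (x axis, CPM plus 0.01 on a log scale) of cell cycle and p53 genes and of keratin, adhesion and stress genes that the text names, iPax3 libraries in the upper row of each pair and Emb libraries in the lower row. Mki67 and Ccnd2 lie close together in both groups, while Ccnd1, Cdkn2a, Ccng1, Krt8, Itga2 and Anxa1 are separated.

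Some keratin, desmosome and mesothelial genes were higher in iPax3, most were not called, and the defining epithelial genes Cdh1 and Epcam were among those not called. Of 32 keratin, junction and mesothelial genes 10 rose and 1 fell (median 1.31, or 0.92 at the bound). Desmoplakin, Dsp, had 368, 616 and 381 CPM in iPax3 against 24.95, 22.5 and 35.5 CPM in Emb (4.04 ± 0.57, adjusted p = 2.01e-04). Plakophilin 2, Pkp2, another part of the desmosome, had 35.1, 59.7 and 26.1 CPM in iPax3 against 0.155, 0 and 0 CPM in Emb (9.56 ± 1.55, adjusted p = 6.84e-04). Mesothelin, Msln, had 266, 163 and 322 CPM in iPax3 against 0.232, 0 and 0.0736 CPM in Emb (11.30 ± 1.18, adjusted p = 1.76e-05). All 3 calls held in every alternative. E-cadherin, Cdh1, had 0.805, 58.3 and 0.8697 CPM in iPax3 and 23.95, 18.4 and 63.3 CPM in Emb (-0.82 ± 1.70, adjusted p = 0.78). The epithelial adhesion molecule Epcam had 1.09, 8.39 and 0.659 CPM in iPax3 and 5.099, 8.35 and 32.9 CPM in Emb (-2.19 ± 1.62, adjusted p = 0.38). Both overlapped between the groups, and iPax3 replicate 2 was the highest of the iPax3 libraries for both. The mesothelial factor Wt1 had 0, 2.17 and 0.0264 CPM in iPax3 and 26.9, 33.98 and 34.9 CPM in Emb (-5.44 ± 1.91, adjusted p = 0.0603) and was called lower without iPax3 replicate 2, without iPax7 replicate 1, with no low-count filter, at thinned depth and by DESeq2. The count that fell was 0 without iPax3 replicate 1 or 3 and 2 without iPax3 replicate 2 or Emb replicate 1 or 3.

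Of 23 integrin subunits 7 rose and 4 fell (median 1.27). Itga2, a collagen receptor subunit, had 52.7, 71.7 and 134 CPM in iPax3 against 0, 0.0572 and 0 CPM in Emb (11.60 ± 1.39, adjusted p = 4.90e-05). Itga3, a laminin receptor subunit, had 167, 279.9 and 263 CPM in iPax3 against 3.63, 0.114 and 16.1 CPM in Emb (5.16 ± 1.07, adjusted p = 0.004603). Itga4, a fibronectin and Vcam1 receptor subunit named after its values were seen, had 31.4, 19.8 and 13.3 CPM in iPax3 against 119, 208 and 115 CPM in Emb (-2.78 ± 0.65, adjusted p = 0.00858). The family differed in both directions, and the call of Itga4 was lost with Emb replicate 1 as the lone Emb library. Of 27 basement membrane genes 10 rose and 3 fell (median 1.63). Perlecan, Hspg2, had 528, 449 and 383 CPM in iPax3 against 71.9, 51.2 and 49.1 CPM in Emb (2.98 ± 0.34, adjusted p = 3.34e-05). Npnt, the integrin ligand nephronectin, had 1450.0, 1445 and 704 CPM in iPax3 against 39.6, 33.1 and 35.8 CPM in Emb (5.05 ± 0.89, adjusted p = 0.00171). The laminin chain Lama4 had 1.23, 1.02 and 0.5798 CPM in iPax3 against 14.4, 43.4 and 44.1 CPM in Emb (-5.15 ± 0.56, adjusted p = 2.28e-05). The calls of Hspg2 and Lama4 held in every alternative, and that of Npnt was lost with Emb replicate 1 as the lone Emb library. The count that fell was 2 without iPax3 replicate 1 for integrins and 1 without iPax3 replicate 1 or 3 or Emb replicate 3 for basement membrane.

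Fibrillar collagens ran mainly the other way. Of 29 of them and their processing enzymes 10 fell and 4 rose (median -1.32). Col1a2, a chain of type I collagen, had 46.9, 50.8 and 12.4 CPM in iPax3 against 826, 1076 and 1167 CPM in Emb (-4.80 ± 0.54, adjusted p = 3.36e-05). Col2a1, the cartilage collagen, had 6.81, 6.197 and 2.85 CPM in iPax3 against 931, 951 and 580.4 CPM in Emb (-7.28 ± 0.55, adjusted p = 1.08e-06). Every iPax3 library was far below the lowest Emb library for both, and the calls held in every alternative. Of 42 other matrix genes 17 fell and 9 rose (median -1.21). Tnc, tenascin C, had 769, 939 and 895 CPM in iPax3 against 12.4, 47.6 and 19.7 CPM in Emb (5.03 ± 0.57, adjusted p = 3.82e-05). The hyaluronan receptor Cd44 had 523, 403 and 776 CPM in iPax3 against 1.16, 10.4 and 1.103 CPM in Emb (7.06 ± 0.97, adjusted p = 2.48e-04). Both rose in every alternative. The collagen count that fell was 5 without iPax3 replicate 3, the collagen count that rose was 2 without iPax3 replicate 1 or Emb replicate 3, and the other matrix count that rose was 4 without iPax3 replicate 2 and 5 without iPax3 replicate 1 or Emb replicate 1.

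**Figure D4:**
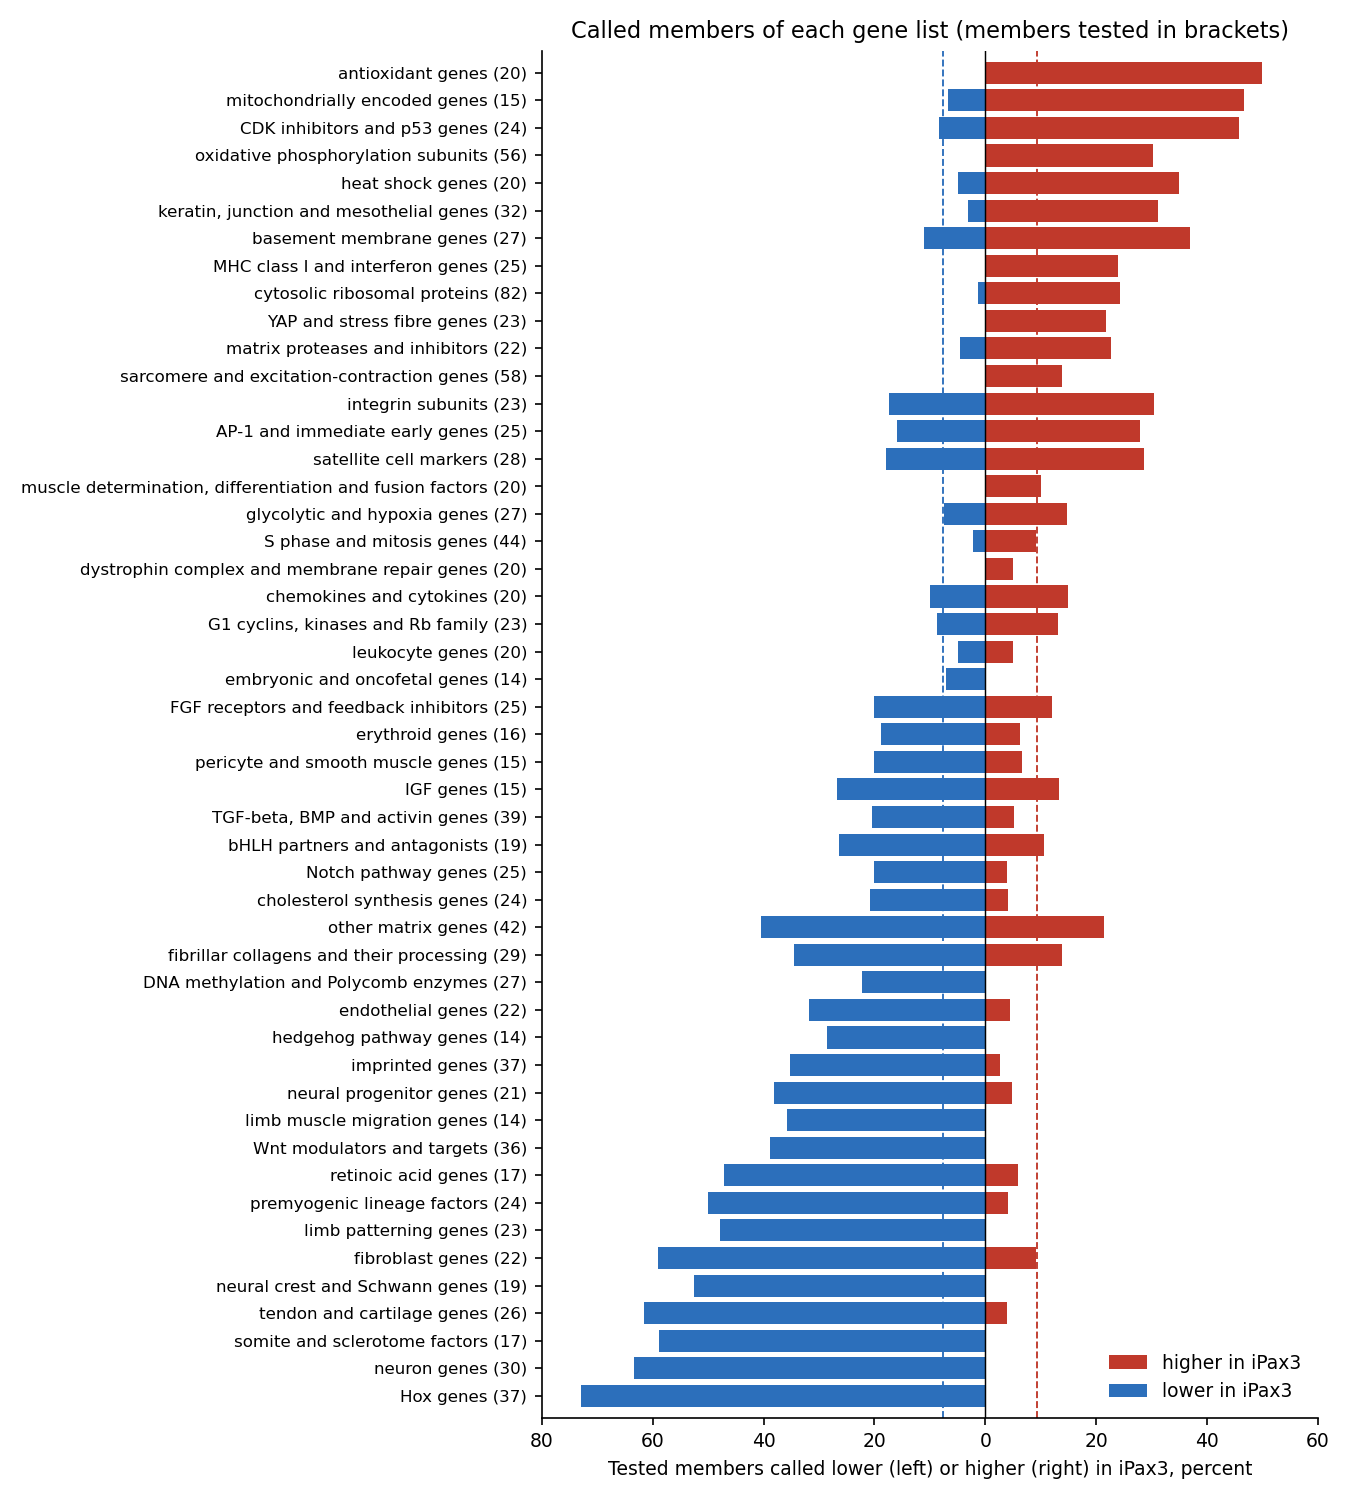
Share of the tested members of each gene list with at least 14 members tested that were called higher (to the right) or lower (to the left) in iPax3, in percent of members tested. Dashed lines mark the shares over all 17571 tested genes, 9.34% higher and 7.64% lower. The Hox, neuron, cartilage, fibroblast and somite bars reach farthest to the left, and the antioxidant, mitochondrially encoded and CDK inhibitor bars farthest to the right. The mitochondrially encoded bar to the right rests mainly on the stretch from mt-Co2 to mt-Nd4l, described below, whose values are uncertain.

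Of 20 antioxidant genes 10 rose and 0 fell (median 1.09). Srxn1, which repairs oxidised peroxiredoxins, had 59.7, 56.9 and 59.3 CPM in iPax3 against 4.25, 3.03 and 0.294 CPM in Emb (4.53 ± 0.80, adjusted p = 0.00133). The metallothionein Mt1 had 21.1, 23.3 and 42.1 CPM in iPax3 against 0, 0 and 0.147 CPM in Emb (9.10 ± 1.53, adjusted p = 9.29e-04). Both were called in every alternative. Of 25 AP-1 and immediate early genes 7 rose and 4 fell (median 0.02, which was slightly below 0 with RLE size factors, library totals alone, the 6 libraries alone, thinned depth and DESeq2, and without iPax3 replicate 2 or Emb replicate 1). The AP-1 subunit Junb had 17.5, 24.1 and 16.6 CPM in iPax3 against 1.16, 0.458 and 0.515 CPM in Emb (4.78 ± 0.47, adjusted p = 8.65e-06). Fos, which is induced quickly by handling of cells, had 16.99, 18.2 and 11.5 CPM in iPax3 against 28.9, 79.4 and 180.0 CPM in Emb (-2.63 ± 0.47, adjusted p = 0.00153). These subunits of one dimeric factor differed in opposite directions, and the call of Fos was lost with Emb replicate 1 as the lone Emb library. Of 20 heat shock genes 7 rose and 1 fell (median 0.87). The small chaperone Hspb1 had 17.6, 29.8 and 23.9 CPM in iPax3 against 0.0773, 0.0572 and 0 CPM in Emb (8.87 ± 1.06, adjusted p = 4.71e-05). The immediate early count that rose was 4 without iPax3 replicate 1 or 2, and the one that fell was 2 without Emb replicate 3. The heat shock count that rose was 2 without iPax3 replicate 1 or 3 or Emb replicate 3, 3 without iPax3 replicate 2 and 4 without Emb replicate 2.

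Of 22 matrix proteases and inhibitors 5 rose and 1 fell (median 0.56). Plaur, the urokinase receptor, had 73.4, 88.4 and 89.3 CPM in iPax3 against 1.004, 3.26 and 0.221 CPM in Emb (5.79 ± 0.76, adjusted p = 1.14e-04). The cysteine protease Ctsl had 715, 734 and 1395 CPM in iPax3 against 97.96, 42.4 and 33.03 CPM in Emb (4.04 ± 0.46, adjusted p = 4.02e-05). The cytokine Lif, a growth factor for myoblasts, had 7.89, 12.8 and 1.26 CPM in iPax3 against 0, 0 and 0.0736 CPM in Emb (7.98 ± 1.45, adjusted p = 0.00156). All 3 were separated between the groups and called in every alternative. Of 25 MHC class I and interferon genes 6 rose and 0 fell (median 1.94). The peptide transporter Tap1 had 25.1, 19.7 and 17.3 CPM in iPax3 against 0.0773, 0 and 0.0736 CPM in Emb (8.60 ± 1.33, adjusted p = 4.48e-04). Ly6e, a small surface protein, had 206, 195 and 203 CPM in iPax3 against 9.35, 0.458 and 0.294 CPM in Emb (5.91 ± 1.04, adjusted p = 0.00158). Axl, a receptor kinase and target of YAP, had 538, 386 and 571 CPM in iPax3 against 58.6, 83.3 and 95.3 CPM in Emb (2.66 ± 0.40, adjusted p = 3.26e-04). The protease count that rose was 3 without iPax3 replicate 2, and the MHC count that fell was 2 without Emb replicate 1.

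Cytokine counts lay near the shares over all genes, 9.34% higher and 7.64% lower. Of 20 chemokines and cytokines tested, 3 rose and 2 fell (median 0.35, which was below 0 without iPax3 replicate 2). Ptgs2, the inducible cyclooxygenase of prostaglandin synthesis, had 163, 272 and 191 CPM in iPax3 against 0.155, 0.4004 and 0.956 CPM in Emb (8.68 ± 1.01, adjusted p = 4.61e-05). Csf1, the macrophage colony-stimulating factor, had 279, 251 and 241 CPM in iPax3 against 8.42, 0.114 and 0.441 CPM in Emb (6.44 ± 1.11, adjusted p = 0.00139). Both were abundant in every iPax3 library and low in every Emb library. Of 23 YAP and stress fibre genes 5 rose and 0 fell (median 0.80). The muscle ankyrin repeat protein Ankrd1, a target of YAP, had 306, 195 and 389.6 CPM in iPax3 against 6.88, 0.343 and 0.294 CPM in Emb (6.90 ± 1.26, adjusted p = 0.00212). Vinculin, Vcl, of focal adhesions, had 194, 455 and 185 CPM in iPax3 against 40.3, 88.5 and 26.9 CPM in Emb (2.42 ± 0.54, adjusted p = 0.00674). Yap1 itself had 163, 168 and 140.1 CPM in iPax3 and 209, 289 and 198 CPM in Emb (-0.56 ± 0.26, adjusted p = 0.15). Ankrd1 and Vcl were separated between the groups, 18 of the 23 were not called, and Yap1 was called by DESeq2 alone. The calls of Ankrd1 and Vcl were lost with Emb replicate 1 as the lone Emb library.

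The AP-1 consensus TGANTCA lay within the 250 bases before a RefSeq start in 9.97% of 1093 genes called higher, 3.44% of 959 called lower and 5.59% of all 11705 tested genes with a window, on either strand. No test was made of these shares. The windows of Plaur, Lif and Srxn1 are printed because these genes rose and hold the consensus, which is in capitals. They lie at chr7:24462233-24462482, chr11:4257318-4257567 and chr2:152105274-152105523 (RefSeq, GRCm38.p6), all on the plus strand, and Srxn1 holds the motif 2 times.
Plaur: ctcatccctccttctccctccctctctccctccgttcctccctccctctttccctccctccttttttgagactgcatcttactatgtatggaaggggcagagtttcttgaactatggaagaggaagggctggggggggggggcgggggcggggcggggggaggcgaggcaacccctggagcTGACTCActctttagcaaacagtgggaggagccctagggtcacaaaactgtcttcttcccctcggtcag
Lif: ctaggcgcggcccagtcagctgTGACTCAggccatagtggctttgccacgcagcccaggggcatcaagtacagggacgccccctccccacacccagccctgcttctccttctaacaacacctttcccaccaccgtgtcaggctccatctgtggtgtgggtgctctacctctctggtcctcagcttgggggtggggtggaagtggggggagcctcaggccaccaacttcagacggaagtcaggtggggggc
Srxn1: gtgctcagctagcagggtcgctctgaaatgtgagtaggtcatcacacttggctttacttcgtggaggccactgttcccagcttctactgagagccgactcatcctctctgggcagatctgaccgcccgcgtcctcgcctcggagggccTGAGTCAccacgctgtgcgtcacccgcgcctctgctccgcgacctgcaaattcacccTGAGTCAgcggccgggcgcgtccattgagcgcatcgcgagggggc
Among integrin, keratin and immediate early genes that rose, 0 with a window held the consensus, which says only that these letters are not in that stretch.

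Among 37 imprinted genes tested, 13 fell and 1 rose (median -1.22). Meg3, a maternally expressed RNA, had 75.4, 58.97 and 45.6 CPM in iPax3 against 768, 975 and 823 CPM in Emb (-3.83 ± 0.27, adjusted p = 5.56e-07). Rian, of the same domain, had 128, 82.00 and 48.4 CPM in iPax3 against 1361, 1871 and 1926 CPM in Emb (-4.32 ± 0.34, adjusted p = 1.13e-06). Both stayed expressed in all iPax3 libraries, well under the lowest Emb library. Magel2, a ubiquitin ligase partner, had 0.0525, 0.191 and 0.105 CPM in iPax3 against 9.43, 20.8 and 40.7 CPM in Emb (-7.61 ± 1.13, adjusted p = 3.19e-04). Peg3, a zinc-finger protein of muscle stem cells, had 2814, 2039 and 1789 CPM in iPax3 and 1769.7, 1746 and 1726 CPM in Emb (0.34 ± 0.66, adjusted p = 0.76). H19, a growth-restraining RNA, had 2321, 50.1 and 1626 CPM in iPax3 and 1712, 3567 and 4602 CPM in Emb (-1.31 ± 1.07, adjusted p = 0.43). iPax3 replicate 2 was far below the other iPax3 libraries in H19. The count of imprinted genes that fell was 8 without iPax3 replicate 1, 2 or 3, and the count that rose was 2 without Emb replicate 1. Gpc3, a glypican of embryonic mesoderm, had 27.3, 79.6 and 11.3 CPM in iPax3 against 1151, 1559.6 and 1639 CPM in Emb (-5.20 ± 0.56, adjusted p = 2.35e-05). Of 27 DNA methylation and Polycomb enzymes 6 fell and 0 rose (median -0.67). Dnmt3a, a de novo DNA methyltransferase, had 171, 119 and 118 CPM in iPax3 against 275, 570.0 and 502 CPM in Emb (-1.72 ± 0.28, adjusted p = 6.45e-04), a call lost with Emb replicate 1 as the lone Emb library. The chromatin count that fell was 1 without iPax3 replicate 3, 2 without iPax3 replicate 1 or 2 or Emb replicate 3 and 3 without Emb replicate 2, and the one that rose was 3 without Emb replicate 1.

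Of 56 nuclear oxidative phosphorylation subunits 17 rose and 0 fell (median 1.15), and of 82 cytosolic ribosomal proteins 20 rose and 1 fell (median 0.80). Atp5b, the catalytic subunit of ATP synthase, had 2161, 2096 and 2530.1 CPM in iPax3 against 595, 592 and 561 CPM in Emb (1.96 ± 0.21, adjusted p = 2.26e-05). Ndufs1, of complex I, had 263, 239 and 279.8 CPM in iPax3 against 77.03, 66.9 and 54.6 CPM in Emb (1.98 ± 0.27, adjusted p = 1.44e-04). Rps20, of the small ribosomal subunit, had 1973, 1859.8 and 2288 CPM in iPax3 against 391, 639 and 468 CPM in Emb (2.03 ± 0.36, adjusted p = 0.00131). In all 3 the groups were tight and apart. Ribosomal proteins share reads with their processed copies. The median exon length was 1918 bases for the respiratory list and 1754.5 bases for the ribosomal list. The median log2 difference over all tested genes was 0.82 in the first of 5 equal bins by exon length, which ends at 1828 bases, and 0.00 in the last. Among protein-coding genes whose higher group averaged 20 CPM or more it was 0.43 in the first bin and -0.01 in the last. The part of gene length in these lists was not tested. The respiratory count that rose was 11 without iPax3 replicate 3, and the ribosomal count that rose was 10 without Emb replicate 3, 11 without iPax3 replicate 3 and 31 without Emb replicate 1. Of 24 cholesterol synthesis genes 5 fell and 1 rose (median -0.74). The sterol demethylase Cyp51 had 92.3, 83.8 and 144 CPM in iPax3 against 663, 1343 and 1228 CPM in Emb (-3.34 ± 0.35, adjusted p = 1.76e-05). The count of sterol genes that fell was 2 without iPax3 replicate 1 or 2 and 3 without Emb replicate 2, and the one that rose was 0 without iPax3 replicate 3 or Emb replicate 2 or 3 and 3 without Emb replicate 1.

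Within the mitochondrial genome the large differences lay in one stretch of neighbouring genes. mt-Co1 had 6498, 6648 and 6828 CPM in iPax3 and 6555, 7776 and 7856 CPM in Emb (-0.15 ± 0.24, adjusted p = 0.71). mt-Cytb, named after its values were seen, had 3329, 3329.6 and 3313 CPM in iPax3 and 4232, 3634 and 4940.5 CPM in Emb (-0.36 ± 0.35, adjusted p = 0.51). Neither was called, and the direction of mt-Co1 turned round with Emb replicate 1 as the lone Emb library. The 6 genes in a row from mt-Co2 to mt-Nd4l were all called higher in iPax3. mt-Co3 had 850.1, 629 and 2496 CPM in iPax3 against 10.9, 6.64 and 10.7 CPM in Emb (7.14 ± 1.48, adjusted p = 0.00536). mt-Atp6 had 687, 470.0 and 2385 CPM in iPax3 against 4.02, 2.803 and 3.75 CPM in Emb (8.39 ± 1.65, adjusted p = 0.00404). Emb libraries held a trace of both beside abundant mt-Co1. Past the stretch, and named after their values were seen, mt-Nd4 had 1105, 1808 and 2129 CPM in iPax3 against 695, 553 and 996 CPM in Emb (1.17 ± 0.30, adjusted p = 0.0144) and mt-Nd6 had 933, 881 and 883 CPM in iPax3 against 1615, 1762 and 2524 CPM in Emb (-1.13 ± 0.36, adjusted p = 0.0429). The call of mt-Nd6 was lost without any 1 iPax3 replicate or Emb replicate 2 or 3, with no low-count filter, with the replicate block and with Emb replicate 1 as the lone Emb library. The call of mt-Nd4 was lost under the last of these, without iPax3 replicate 3 or Emb replicate 2 and with the 6 libraries alone. The stretch also divided the fetal (Fet) libraries of the series, with mt-Co3 at 2694, 5457 and 5.49 CPM in their 3 replicates. It was at 2293, 1075 and 2402 CPM in the 3 iPax7 libraries and at 48.04, 63.3 and 46.6 CPM in the 3 neonatal (Neo) libraries. Mouse nuclear DNA holds a near-identical copy of part of the mitochondrial genome, and how reads with several positions were treated was not given, so these values are uncertain. None of the 6 was called with Emb replicate 1 as the lone Emb library, and mt-Nd3, also named after its values were seen, lost its call with the replicate block, with no low-count filter, without iPax3 replicate 2 or 3 and without Emb replicate 2 or 3.

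**Figure D5:**
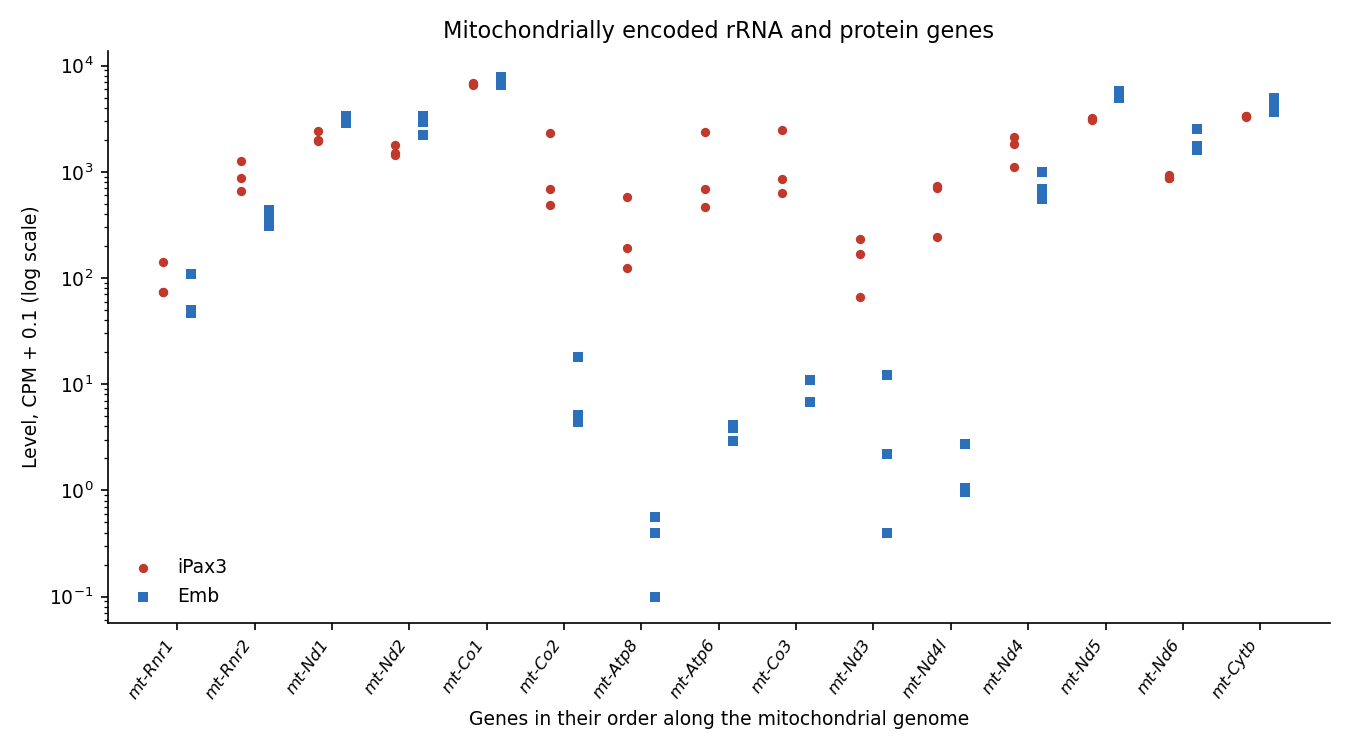
Level in each of the 6 libraries (y axis, CPM plus 0.1 on a log scale) of the 15 mitochondrially encoded rRNA and protein genes in their order along the mitochondrial genome (x axis), iPax3 left of Emb for each gene. The 6 genes from mt-Co2 to mt-Nd4l drop in Emb, whereas the groups lie much closer together for the genes on both sides.

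The 3 iPax3 libraries were alike for most genes. Of 7795 genes with at least 20 CPM in one of them, replicate 1 was over 4-fold above both others at 6 and under both at 5. Replicate 2 was above both at 45 and under both at 25, and replicate 3 was above both at 5 and under both at 36. Replicate 2 held the most of some stem cell and early embryo transcripts. Lin28a, an RNA-binding protein of early embryos, had 0.245, 43.02 and 0.264 CPM in iPax3 and 48.8, 8.69 and 16.3 CPM in Emb (-0.76 ± 2.08, adjusted p = 0.84). L1td1, a stem cell transcript named after its values were seen, had 0.858, 34.5 and 0.553 CPM in iPax3 and 0, 8.41 and 1.54 CPM in Emb (1.84 ± 2.08, adjusted p = 0.58). Pou5f1, a core pluripotency factor, had 0.333, 8.41 and 0.553 CPM in iPax3 and 0, 0 and 0 CPM in Emb and was not tested because of low counts. In all 3 replicate 2 was far above the other iPax3 libraries. Replicate 3 held the least of some muscle genes, as for Myh3 above, and the most of Tnnt3. The MADS-box factor Mef2c had 29.8, 39.4 and 1.03 CPM in iPax3 and 61.4, 135 and 110.0 CPM in Emb (-2.12 ± 1.06, adjusted p = 0.19). The smooth muscle gene Tagln had 59.9, 243 and 6.75 CPM in iPax3 against 8.42, 3.15 and 0.441 CPM in Emb (4.69 ± 1.15, adjusted p = 0.0132), a call lost without iPax3 replicate 2, without Emb replicate 2, with the 6 libraries alone, with no low-count filter and with Emb replicate 1 as the lone Emb library. The Emb libraries were less alike. Of 8689 genes with at least 20 CPM in one of them, replicate 1 was over 4-fold under both others at 178, replicate 2 at 751 and replicate 3 at 750.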

How the data were processed

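Bulk RNA sequencing counts of 3 iPax3 and 3 Emb libraries were analysed. The deposited values were raw read counts per Ensembl gene, made with CASAVA 1.8, HISAT2 2.0.2 and Subread featureCounts 1.4.6 on mm10, per the submitters' processing notes. The sources used here give no annotation release or strand setting, nor how reads with several positions were treated, so overlapping, antisense and duplicated genes are uncertain. Of 47728 identifiers, 47223 were matched to symbols in GENCODE M21.

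Counts were fitted with edgeR 4.0.16 (quasi-likelihood, TMM factors, filterByExpr, all 15 bulk libraries with 1 mean per group; R 4.3.3, limma 3.58.1), and p-values were adjusted over 17571 genes by Benjamini-Hochberg at 0.05. The standard error of a log2 difference was its size divided by the square root of the F statistic. CPM carried no prior count. A bound for a group with no count used 3 counts over the group. The fit was also run on simulated counts, 3 against 3, with gene means over all 15 libraries, their totals and 200 changed genes. It found 0% of 2-fold, 14% of 4-fold, 30% of 8-fold and 42% of 16-fold changes among 17093 genes, and 2 of 45 calls were false. In the data 17.0% of genes were called, a far larger share than was changed in the simulation, so these rates need not carry over. Totals of 11804719 to 56275318 counts in the iPax3 and Emb libraries limit precision, and no 2 replicates agreed within sampling noise. Among the other libraries in the fit, totals were as low as 516504 counts in Fet replicate 1 and 3557117 in Neo replicate 3.

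The alternatives were RLE size factors, library totals alone, no low-count filter, DESeq2 1.42.0, the 6 libraries alone, leaving out each of the 6 libraries or iPax7 replicate 1, a replicate block, thinned depth and an added fold threshold. Emb replicate 1 as the lone Emb library was added after seeing the data. Genes were named by adjusted p or level among called genes with non-overlapping groups, or as marked and leading called members of the lists. Some genes that this rule takes are not reported here. The gene lists and the members named were chosen with earlier results of these data known. The other 9 bulk libraries entered the low-count filter, the TMM factors and the estimate of spread, and their mt-Co3 values are given above. Of the genes tested, 2812 averaged under 1 CPM in both iPax3 and Emb. Single-cell files were not analysed here. Promoter windows came from RefSeq (GRCm38.p6).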

Additional observations from a re-analysis of the deposited data

How the results depend on the processing

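The 1641 genes called higher in iPax3 became 825 to 3417, and the 1342 called lower became 662 to 1643, when each of the 6 libraries was left out in turn. With Emb replicate 1 as the lone Emb library the counts were 352 and 538, and DESeq2 gave 2180 and 2267. Same-numbered libraries did not deviate together over all genes (correlations -0.0302, 0.00189 and 0.00443). No pairing by number was seen in this, but a pairing that touched few genes would not show. The replicate block gave 1260 higher and 1040 lower. The other settings stayed within 1.5 times of both counts. All 150 named called genes kept their direction in every alternative, and 134 of them kept their call in every alternative other than Emb replicate 1 as the lone Emb library. The median difference of all genes was 0.24, 0.14 with RLE size factors, 0.13 with DESeq2 and 0.11 at thinned depth. 

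Directions turned round only among named genes that were not called, and the cause was not tested. Log2 differences of Met were -0.0557 with RLE size factors, -0.0318 with the 6 libraries alone, -0.0041 at thinned depth and -0.0556 with DESeq2. Those of Cxcr4 were -0.0902, -0.0629, -0.0284 and -0.092 under these 4 settings in the same order, and -0.3637 with Emb replicate 1 as the lone Emb library. With that library alone Dusp6 was at -0.49 and mt-Co1 at 0.0376. Six4 was at 0.0061 with the replicate block. Leaving out 1 of the 6 libraries in turn gave -0.0610 to 0.20 for Met, -0.40 to 0.34 for Cxcr4, -0.32 to 0.47 for Six4, -0.0649 to 0.58 for Dusp6, -2.20 to 3.96 for L1td1, -6.53 to 0.24 for Lin28a and -0.0865 to 0.54 for Lrp5.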

Other observations

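The glycolytic, dystrophin complex and oncofetal counts lay near the shares over all genes, 9.34% higher and 7.64% lower, and single members are given as values. Of 27 glycolytic and hypoxia genes tested, 4 rose and 2 fell (median 0.78). Aldoa, the muscle aldolase, had 396, 398 and 486 CPM in iPax3 against 156, 66.1 and 58.5 CPM in Emb (2.19 ± 0.46, adjusted p = 0.00417). Lactate dehydrogenase A, Ldha, had 555, 452 and 529 CPM in iPax3 against 289.8, 109 and 128 CPM in Emb (1.55 ± 0.46, adjusted p = 0.0308). Pdk1, a kinase that restrains pyruvate entry into mitochondria, had 17.8, 25.1 and 12.9 CPM in iPax3 against 84.99, 144 and 113 CPM in Emb (-2.62 ± 0.68, adjusted p = 0.0159). Vegfa, the angiogenic factor, had 40.5, 41.8 and 57.3 CPM in iPax3 against 98.7, 189 and 103 CPM in Emb (-1.48 ± 0.47, adjusted p = 0.0384). Every iPax3 library was above every Emb library for Aldoa and Ldha, and below every Emb library for Pdk1 and Vegfa. The calls of Ldha and Vegfa were lost without any 1 iPax3 replicate or Emb replicate 2 or 3, that of Vegfa also with the replicate block, and that of Pdk1 without iPax3 replicate 1 or 3. All 4 were lost with Emb replicate 1 as the lone Emb library. The count that rose was 2 without iPax3 replicate 3 or Emb replicate 2 and 7 without Emb replicate 1, and the count that fell was 0 without iPax3 replicate 1 or 3 and 1 without Emb replicate 2 or 3.

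Of 20 dystrophin complex and membrane repair genes 1 rose and 0 fell (median 0.59). Utrophin, Utrn, had 278, 391 and 229 CPM in iPax3 against 102, 101 and 91.5 CPM in Emb (1.61 ± 0.28, adjusted p = 0.00126). Dystrophin, Dmd, had 11.9, 21.98 and 5.46 CPM in iPax3 and 33.99, 56.6 and 31.3 CPM in Emb (-1.63 ± 0.64, adjusted p = 0.0878). The paralogs lay apart in opposite directions, and Utrn was called, a call lost with Emb replicate 1 as the lone Emb library. Dmd was called lower by DESeq2. Of 14 embryonic and oncofetal genes 0 rose and 1 fell (median -0.79). The dystrophin complex count that rose was 4 without Emb replicate 1, and the oncofetal count that fell was 2 without Emb replicate 1.

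Of 21 neural progenitor genes 1 rose and 8 fell (median -5.01), and of 22 endothelial genes 1 rose and 7 fell (median -2.52). The endothelial count that fell was 0 without iPax3 replicate 1, 1 without iPax3 replicate 3, 2 without iPax3 replicate 2 and 3 without Emb replicate 1. The 22 pluripotency genes summed to 34.05 to 99.1 CPM in iPax3 and 22.5 to 89.3 CPM in Emb. The sums overlapped, but 14 of the 22, untested ones included, had no count in any Emb library. In iPax3 0 of them lacked a count. Of the 13 tested, 2 rose and 0 fell (median 5.14, or 3.35 with genes at 0 in a group at their bound), beside 9.34% higher over all genes. The count that rose was 1 when any 1 of the 6 libraries was left out. The 17 erythroid genes summed to 328 to 373 CPM in iPax3 and 402 to 537 CPM in Emb, and the 17 cardiac genes to 44.6 to 168 CPM in iPax3 and 197 to 333 CPM in Emb. Of the erythroid genes, 9 had no count in any Emb library and 5 none in any iPax3 library, and the sums do not show which members made them up. The part of other cell types in the differences was not tested.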
